A study of Mus musculus with 18 samples.

Results

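The unfolded protein response and the amino acid stress response were followed through 35 genes of chaperones, protein degradation, stress regulation and amino acid supply, out of 12394 genes measured on mouse fibroblast arrays. The genes were taken by name from a list of endoplasmic reticulum (ER) chaperone and Atf4 pathway genes. All 35 had at least 1 probe set and entered the test, since no filter on low levels was applied. They fell into 14 chaperones and folding factors, 4 degradation genes, 9 regulators and 8 amino acid and one-carbon genes. The array held 70 probe sets annotated to 1 of these genes alone, and where a gene had several, the one with the highest mean stood for it.

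RNA came from mouse embryonic fibroblasts (MEFs) immortalised with SV40, untreated and grown in serum-containing medium. Both groups carried at least 1 disrupted copy of Tdg, the gene of thymine DNA glycosylase, which cuts mispaired thymine and oxidised forms of methylcytosine out of DNA. The 3 Tdg+/- samples (MEF_het) came from clone 4 and the 3 Tdg-/- samples (MEF_KO) from clone 9, so clone and genotype cannot be told apart. Separate cultures are not stated in the labels, so every p-value reflects the spread between these 6 samples alone, and that spread may be technical. The question put to these arrays was which transcripts differ between fibroblasts with and without Tdg.

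The unfolded protein response raises the folding and disposal capacity of the ER when misfolded proteins accumulate there. The sensors Ire1 (gene Ern1), Perk (gene Eif2ak3) and Atf6 are released from the chaperone BiP (gene Hspa5), and act through spliced Xbp1, through translation of Atf4 and through a cleaved Atf6 fragment. Atf4 is also made when amino acids run short, sensed by Gcn2 (gene Eif2ak4), and it then turns on genes of amino acid synthesis, transport and one-carbon metabolism. Fibroblasts secrete large amounts of collagen and other matrix proteins, and they depend on ER chaperones for it.

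The response elements of both arms can be read in some promoters of the roles described next, and no element marks a whole role. Promoters from 250 bases before to 50 bases after the start were present for 31 of the 35 genes in the RefSeq table of build GRCm38.p6, and Manf, Hyou1, Atf6 and Slc7a5 had no entry. The ER stress response element, CCAAT and CCACG with 9 bases between them on either strand, was found in 8 of the 31, which is 25.8%, against 0.119% of all 32851 promoters in the table. Of the 12 chaperone and folding promoters 7 held it, Syvn1 was the only degradation gene with it, and neither a regulator nor an amino acid gene had it. The 7 chaperone genes were Hspa5, Calr, Hsp90b1, Canx, Pdia6, Dnajc3 and Creld2, with 2 copies in Hsp90b1. The sequences below are written along the element, with its fixed letters in capitals.
Hspa5: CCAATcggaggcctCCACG
Calr: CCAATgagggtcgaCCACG
Hsp90b1: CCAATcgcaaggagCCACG
Canx: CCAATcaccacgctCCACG
Pdia6: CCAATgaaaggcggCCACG
Dnajc3: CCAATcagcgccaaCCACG
Creld2: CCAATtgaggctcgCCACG
Syvn1: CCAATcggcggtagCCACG

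The second form of that element, ATTGG and CCACG with 1 base between them, was found in Herpud1 and Dnajb11 and in 0.0365% of all promoters. The C/EBP-ATF response element, TGATGNAA on either strand, to which Atf4 binds with a partner, was found in Atf3, Chac1, Trib3, Asns, Slc7a11 and Herpud1. These are 19.4% of the 31 promoters, against 3.97% of all promoters. The element was in 3 of 8 regulator, 2 of 7 amino acid and 1 of 4 degradation promoters, and in none of the 12 chaperone promoters. The unfolded protein response element TGACGTGG was in none of the 31 and in 0.676% of all promoters. No 2 of these matches overlapped in 1 promoter. A match is a stretch of letters and not a measured binding site. The genes were listed for their place in these pathways, so the shares describe the list and are no test. Each listed gene counts with 1 promoter, while the share of all promoters counts every entry.

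The promoters of 4 genes on which the results turn are given whole, 5′ to 3′ along each gene, with matched letters in capitals. In Hspa5 the element ended 47 bases before the start. In Herpud1 the second form began 52 bases and the C/EBP-ATF element 112 bases before the start. The C/EBP-ATF element began 193 bases before the start in Chac1 and 23 bases before it in Asns.
Hspa5 (chr2:34771840-34772139, plus strand): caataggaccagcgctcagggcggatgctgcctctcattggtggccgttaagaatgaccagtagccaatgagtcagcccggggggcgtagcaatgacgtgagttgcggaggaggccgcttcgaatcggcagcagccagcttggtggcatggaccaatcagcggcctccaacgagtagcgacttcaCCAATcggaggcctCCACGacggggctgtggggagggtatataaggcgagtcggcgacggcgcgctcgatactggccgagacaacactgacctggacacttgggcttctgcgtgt
Herpud1 (chr8:94386179-94386478, plus strand): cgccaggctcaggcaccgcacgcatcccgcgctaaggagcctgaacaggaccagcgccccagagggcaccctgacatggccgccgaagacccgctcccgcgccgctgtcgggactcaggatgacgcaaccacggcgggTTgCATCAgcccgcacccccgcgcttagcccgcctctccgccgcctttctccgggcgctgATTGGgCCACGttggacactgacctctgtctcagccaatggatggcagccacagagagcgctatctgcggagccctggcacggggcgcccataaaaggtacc
Chac1 (chr2:119350992-119351291, plus strand): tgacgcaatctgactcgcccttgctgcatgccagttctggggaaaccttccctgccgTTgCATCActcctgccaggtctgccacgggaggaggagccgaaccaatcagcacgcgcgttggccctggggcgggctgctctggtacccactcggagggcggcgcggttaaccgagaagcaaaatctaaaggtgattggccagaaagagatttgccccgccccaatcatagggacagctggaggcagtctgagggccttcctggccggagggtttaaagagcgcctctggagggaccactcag
Asns (chr6:7693160-7693459, minus strand): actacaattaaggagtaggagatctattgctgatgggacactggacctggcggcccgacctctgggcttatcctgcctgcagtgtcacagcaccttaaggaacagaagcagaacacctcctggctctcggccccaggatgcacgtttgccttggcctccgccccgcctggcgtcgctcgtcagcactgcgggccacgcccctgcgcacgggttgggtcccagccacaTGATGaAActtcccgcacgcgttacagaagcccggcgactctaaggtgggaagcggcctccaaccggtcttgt

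The arrays were first checked. Each of 3 probe sets for Tdg, all also annotated to Tdg pseudogenes, was lower on every Tdg-/- array, by 3.46-fold to 6.30-fold (limma, adjusted p from 0.000726 to 0.00543). MEF_het replicate 1 stood apart: its correlations with the Tdg+/- replicates 2 and 3 were 0.962 and 0.953, while those 2 arrays correlated at 0.997. It was the lowest of the 6 arrays for 22 of the 35 genes and the highest for none, with a median of -0.20 (log2) below the mean of its group's other arrays. That is near the share for genes above the median level, of which it was the lowest for 64.5%, and 32 of the 35 genes lie above that level. The 3′ minus 5′ signal of the Gapdh and Actb control probe sets lay between -0.13 and 0.16 (log2) on all 6 arrays, and was -0.07 and -0.12 on MEF_het replicate 1. The SD over all probe sets was 1.7 (log2) on that array and 1.81 to 1.9 on the others. Results are therefore given with and without MEF_het replicate 1.

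Fibroblast identity was checked against 14 marker genes. Of these, 8 were lower in Tdg-/- MEFs and none was higher, and their mean level ran from 10.56 to 10.67 (log2) on the Tdg+/- arrays and from 10.05 to 10.16 on the Tdg-/- arrays. The 8 were Col1a2, Col3a1, Col6a1, Thy1, Pdgfra, Dcn, Fbln2 and Fap. The largest falls were those of Fap (-1.32), Pdgfra (-1.23), Thy1 (-1.18) and Col3a1 (-1.15). Pdgfrb differed by 1.12 the other way and did not pass (limma, adjusted p = 0.0592). Col1a1, Fn1 and Vim did not pass and were at 12.83 or above in both groups. Epithelial, blood, endothelial and muscle marker lists had mean levels between 6.27 and 7.10 on every array, where 33 probe sets for olfactory receptors, genes not active in fibroblasts, had a median of 6.29 and a 90th percentile of 7.03. Within them several genes lay above 7.03 in both groups. Among these were the endothelial genes Kdr (8.95 and 8.37, Tdg+/- and Tdg-/- means), Flt1 (8.69 and 8.75) and Eng (7.74 and 7.51). The macrophage genes Csf1r (7.79 and 7.75), Lyz2 (7.36 and 7.09) and Cd14 (7.17 and 7.80) were others. So were the muscle gene Des (7.87 and 7.67) and the epithelial gene Krt8 (7.57 and 7.43). Of these genes Kdr fell and Cd14 rose. Among the fibroblast markers, Fap (6.90 and 5.59) and Lum (5.73 and 5.31) lay under 7.03 in both groups. Pdgfra (8.09 and 6.86) lay under it in Tdg-/- MEFs alone. Of 6 neural markers 3 were higher in Tdg-/- MEFs, and the mean level of that list ran from 7.40 to 7.58 in Tdg+/- and from 8.40 to 8.51 in Tdg-/- MEFs. Sox2 had the largest difference of that list, 3.75, followed by Nes at 0.93 and Ncam1 at 0.86, while Map2 differed by -0.40 and Gfap by 0.01. Tubb3 differed by 0.71 and did not pass, with MEF_het replicate 1 the highest array. Without that array it differed by 1.24 and passed (limma, adjusted p = 6.79e-07). The part of these marker differences in the results was not tested.

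Most of the 35 stress response genes did not pass the test between the genotypes. With all 6 arrays, 1 gene rose in Tdg-/- MEFs, none fell and 34 did not pass (limma with Benjamini-Hochberg adjustment over all 12394 genes, threshold 0.05). Over all genes 3.83% were called, 2.52% higher and 1.32% lower, so 1 of 35 is close to the background. At an unadjusted p under 0.05, 8 of the genes were higher and 1 was lower, against 15.1% and 7.32% of all genes. Of the 6197 genes above the median level, where 32 of the 35 lie, 1469 were higher and 387 lower. In bulk RNA, fewer cells of a type and less RNA per cell cannot be told apart.

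The differences were small. The median over the 35 genes was 0.12 (log2), within a range from -0.36 to 0.83, and the median size was 0.20 against 0.22 over all genes. The difference was positive for 26 of 35 genes, which is 74.3%, against 47.9% of all genes and 70.9% of genes above the median level, whose median was 0.14. With quantile normalization 17 were positive and 18 negative and the median was -0.01, so no common direction is given for the group. The groups of arrays did not overlap for 12 genes in the higher direction, which is 34.3%, and for 3 in the lower, 8.57%. Over all genes the shares were 22.6% and 16.8%, and among genes above the median level 35.6% and 10.1%.

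Without MEF_het replicate 1, 9 of the 35 genes passed as higher and 2 as lower. These were Canx, Pdia6, Dnajb9, Sdf2l1, Herpud1, Xbp1, Trib3, Chac1 and Asns, and in the lower direction Hyou1 and Atf3. The shares are 25.7% and 5.71%, against 14.1% and 7.87% of all genes and 20.6% and 8.28% of genes above the median level. The median difference was then 0.06. With any other array left out, none of the 35 genes passed in either direction, and 0.766% to 3.15% of all genes did.

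**Figure D1:**
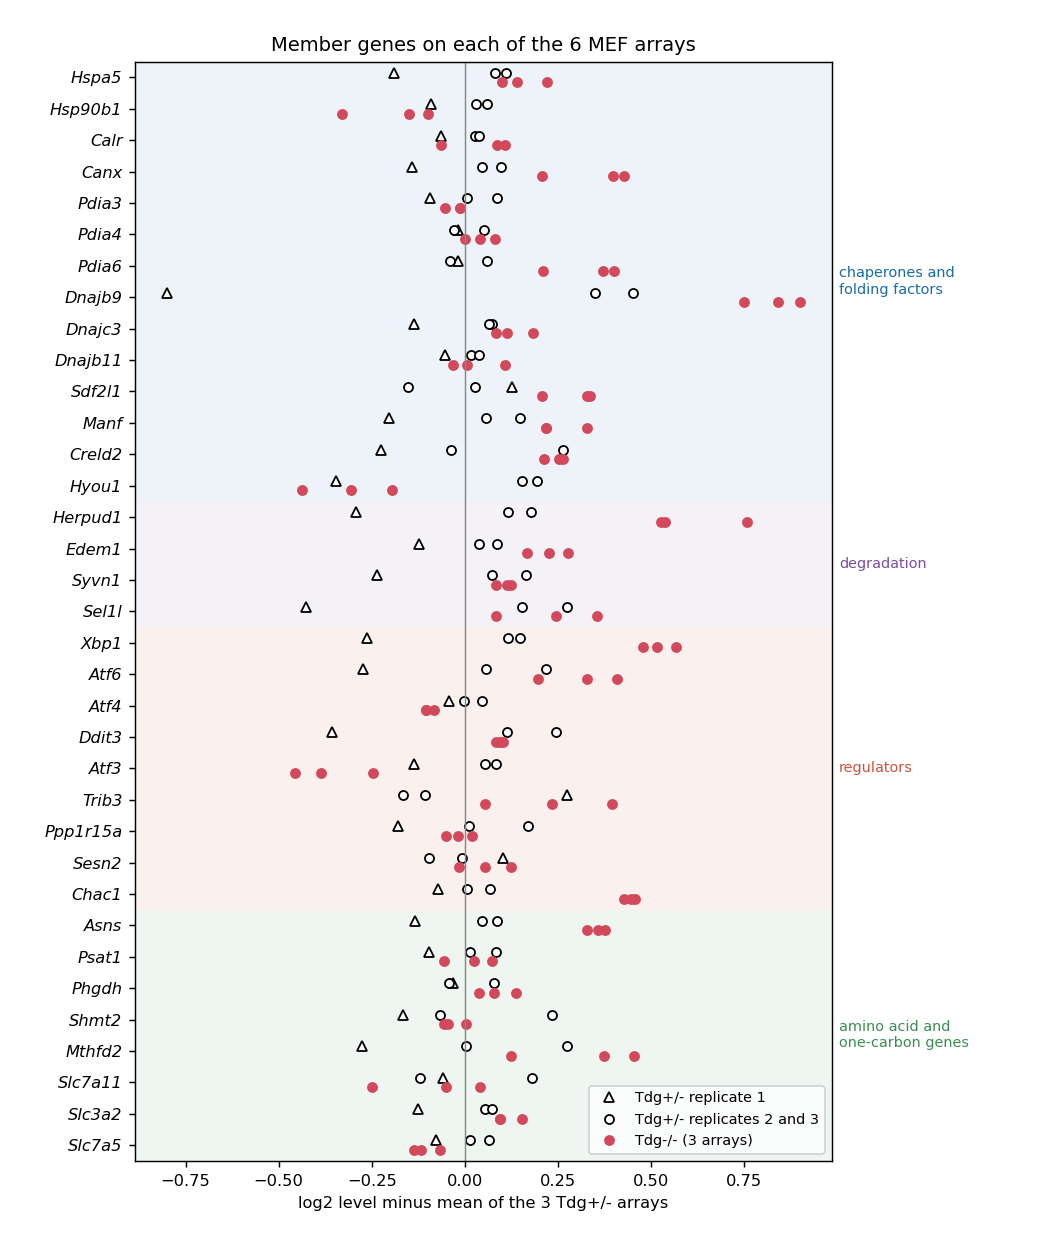
Log2 level of each of the 35 genes on each MEF array, minus the mean of the 3 Tdg+/- arrays (x axis), by gene and role (y axis). Open symbols are Tdg+/- arrays, with replicate 1 as a triangle, and red points are Tdg-/- arrays; the triangle is the lowest point of its gene in 22 of 35 rows.

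Among the chaperones and folding factors, none of 14 passed with all arrays. At an unadjusted p under 0.05, 4 were higher, against 15.1% of all genes and 1469 of 6197 genes above the median level. The median difference was 0.14 (log2), with 11 of 14 positive, and it was 0 with 7 positive and 7 negative after quantile normalization. Hspa5 encodes BiP, the main ER Hsp70 chaperone. Its levels were 12.15, 12.42 and 12.45 (log2) on the Tdg+/- arrays and 12.44, 12.48 and 12.56 on the Tdg-/- arrays. The groups overlapped, and the difference was 0.15 with a 95% interval from -0.11 to 0.41 (adjusted p = 0.365), or 0.06 without MEF_het replicate 1.

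Of the other chaperones, 4 differed by no more than 0.04 in size at their main probe set. Calr, the lectin chaperone calreticulin, differed by 0.04 (log2, 95% interval -0.17 to 0.25), Dnajb11, an Hsp40 partner of BiP, by 0.03 (-0.17 to 0.23), and Pdia3 and Pdia4, disulfide isomerases, by -0.03 (-0.23 to 0.18) and 0.04 (-0.15 to 0.23). Dnajc3, a further BiP partner that also restrains Perk, differed by 0.13 (-0.10 to 0.35) at its main probe set. Its 4 other probe sets differed by 0.37 to 0.60 with MEF_het replicate 1 the lowest array on each, none passed, and the mean over all 5 differed by 0.43. Manf, a secreted ER stress factor, and Creld2, a secreted protein with an isomerase activity, differed by 0.25 (-0.02 to 0.53) and 0.24 (-0.08 to 0.56), with adjusted p-values of 0.244 and 0.296. Hsp90b1, the ER Hsp90 (Grp94), was lower on all Tdg-/- arrays at its main probe set, with a difference of -0.20 (-0.43 to 0.04) that did not pass (adjusted p = 0.274), while its second probe set differed by 0.32.

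For 6 of the 14 folding genes, all Tdg-/- arrays lay above the Tdg+/- arrays at the main probe set. These were Canx, Pdia6, Sdf2l1, Dnajb9, Manf and Dnajc3. The share is 42.9%, against 22.6% of all genes and 35.6% of genes above the median level, where all 14 lie. Canx encodes calnexin, the membrane-bound lectin chaperone, and was at 10.73, 10.92 and 10.97 (log2) in Tdg+/- and at 11.08, 11.27 and 11.30 in Tdg-/- MEFs. Pdia6, a disulfide isomerase, was at 10.88, 10.86 and 10.96 against 11.27, 11.11 and 11.30. Their differences were 0.34 ± 0.11 and 0.33 ± 0.09 (SE, n = 3 per group), with adjusted p-values of 0.141 and 0.110 in limma, and 0.0345 and 0.0138 without MEF_het replicate 1. All 3 Canx probe sets had positive differences, of 0.19 to 0.34, while the other Pdia6 probe set, at a mean of 6.65 near the olfactory receptor median, differed by -0.10.

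Sdf2l1, a small ER protein that works with BiP, was at 7.84, 7.74 and 7.56 (log2) in Tdg+/- and at 8.04, 8.05 and 7.92 in Tdg-/- MEFs. It is 1 of the 4 genes of its role that were higher at an unadjusted p under 0.05 (adjusted p = 0.180, and 0.00771 without MEF_het replicate 1). Dnajb9 encodes ERdj4, an Hsp40 that returns Ire1 to BiP, and with all arrays had the largest difference among the main probe sets of the 35 genes. Its levels were 6.92, 8.07 and 8.17 in Tdg+/- and 8.47, 8.56 and 8.62 in Tdg-/- MEFs. MEF_het replicate 1 lay 1.20 below the mean of the other Tdg+/- arrays. The difference was 0.83 ± 0.32 (SE, n = 3 per group; adjusted p = 0.198), and without that array 0.43 ± 0.08, which is 1.35-fold (adjusted p = 0.00135) and smaller in size than those of Hyou1 and Herpud1 without that array.

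Hyou1 went the other way. It encodes Orp150, the large ER Hsp70 that exchanges nucleotide on BiP. The probe set with the highest mean was at 9.23, 9.77 and 9.73 (log2) in Tdg+/- and at 9.14, 9.38 and 9.27 in Tdg-/- MEFs, where MEF_het replicate 1 fell among the Tdg-/- values (difference -0.31, adjusted p = 0.283). Both other Hyou1 probe sets fell by 0.85 with groups that did not overlap, in the fit over the 20393 named probe sets, of which 3.09% were called. The first of them was at 9.79, 9.33 and 9.43 against 8.71, 8.67 and 8.63, which is 1.80-fold lower (adjusted p = 0.0281). The second was at 6.36, 6.62 and 6.78 against 5.77, 5.76 and 5.68 (adjusted p = 0.0213), where the Tdg-/- values lie under the olfactory receptor median of 6.29. When MEF_het replicate 2 or a single Tdg-/- array was left out, neither passed (highest adjusted p 0.173 and 0.138), and the first also failed to pass without MEF_het replicate 3.

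All 4 degradation genes had positive differences with all arrays, of 0.11 to 0.61 (log2), and none passed. After quantile normalization 3 were positive, and Syvn1 was at -0.06. Herpud1, a membrane component of the complex that moves misfolded proteins out of the ER, had the largest. Its probe set with the highest mean was at 8.57, 9.04 and 8.98 in Tdg+/- and at 9.39, 9.62 and 9.40 in Tdg-/- MEFs. The groups did not overlap, and the difference was 0.61 ± 0.15 (SE, n = 3 per group; adjusted p = 0.0814), or 0.46 without MEF_het replicate 1 (adjusted p = 0.00149). Its other probe set, at 8.39, 8.20 and 8.41 against 9.10, 9.17 and 9.20, rose 1.76-fold with an adjusted p of 0.00983 over the named probe sets. On that probe set MEF_het replicate 1 lay within its group, and the difference without it was 0.85 against 0.82 with it. It no longer passed when MEF_het replicate 2 or a single Tdg-/- array was left out (highest adjusted p 0.0934).

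The ubiquitin ligase and its partner showed little. Syvn1, which encodes the ligase Hrd1, was at 9.04, 9.35 and 9.44 (log2) in Tdg+/- and at 9.39, 9.40 and 9.36 in Tdg-/- MEFs. Its difference of 0.11 (95% interval -0.18 to 0.39) became -0.01 without MEF_het replicate 1. Sel1l, the adaptor of Hrd1, differed by 0.23 (-0.23 to 0.69), and by 0.02 without that array. Its other probe sets differed by -0.27 to 0.04. Edem1, which directs misfolded glycoproteins to degradation, was at 8.59, 8.75 and 8.80 against 8.88, 8.99 and 8.94, with groups that did not overlap and a difference of 0.22 (adjusted p = 0.224). The other Edem1 probe set differed by 0.55, with MEF_het replicate 1 the lowest array, and the mean of both by 0.39.

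**Figure D2:**
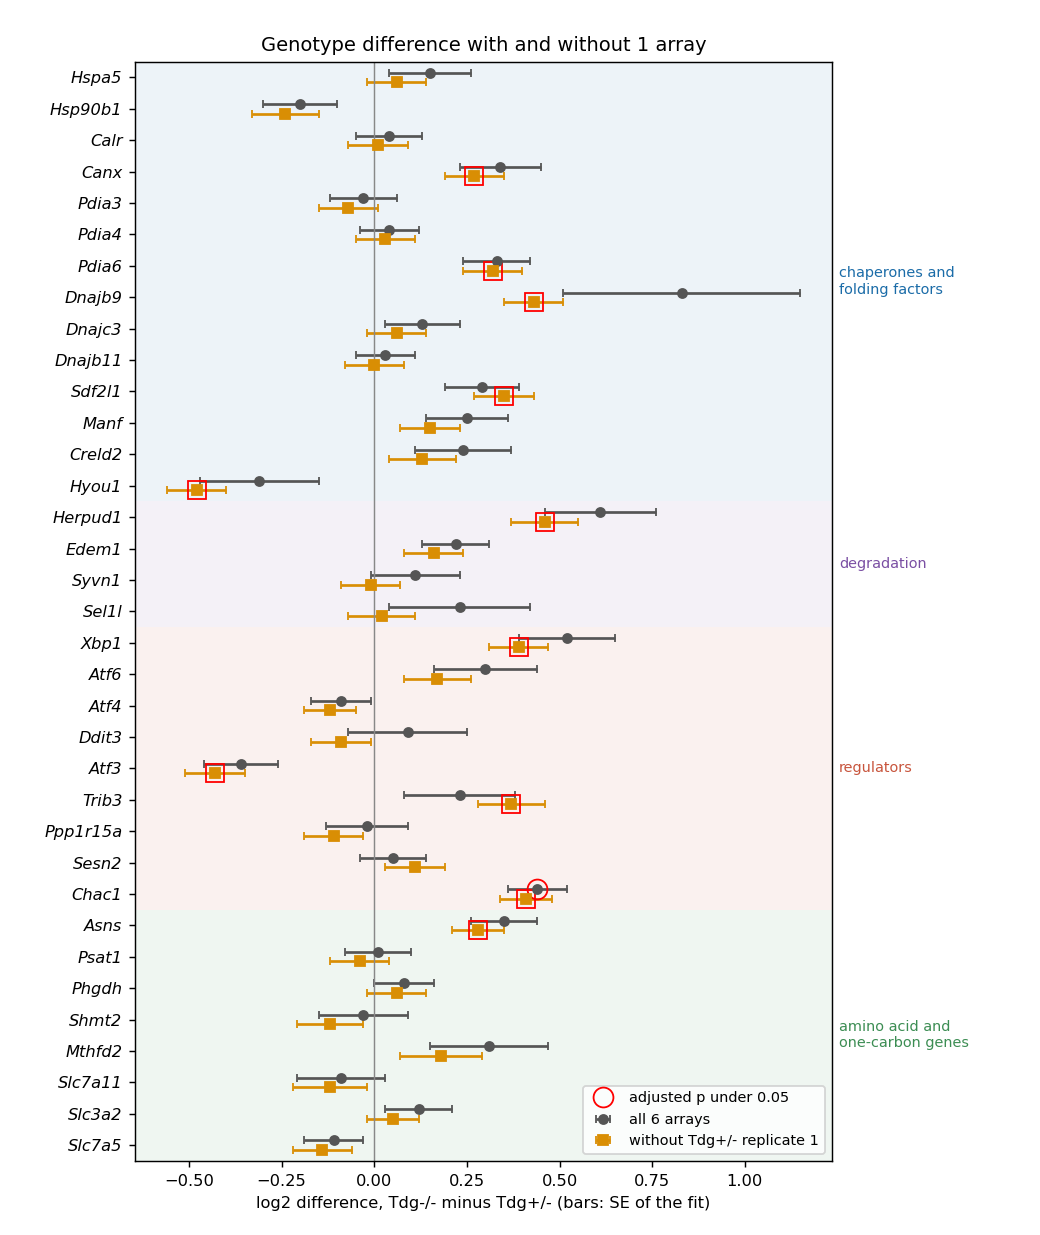
Log2 difference of each gene, Tdg-/- minus Tdg+/- (x axis, bars are the standard error of the fit), with all 6 arrays (grey) and without Tdg+/- replicate 1 (orange). Red outlines mark an adjusted p under 0.05: 1 gene, Chac1, with all arrays, and 11 genes without that array, of which Hyou1 and Atf3 lie below 0.

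Of the 9 regulators, Chac1 rose, none fell and 8 did not pass; the median difference was 0.09 (log2), or -0.02 after quantile normalization. Chac1, listed here with the regulators, encodes a glutathione-degrading enzyme and is a target of Atf4. Its levels were 8.16, 8.30 and 8.24 on the Tdg+/- arrays and 8.69, 8.68 and 8.66 on the Tdg-/- arrays. The groups did not overlap, and the level was 1.36-fold higher in Tdg-/- MEFs, a difference of 0.44 ± 0.08 (SE, n = 3 per group; limma adjusted p = 0.0385). Over the 13 alternatives tried the difference ran from 0.32 to 0.48 and the adjusted p from 0.00127 to 0.224, with 6 past the threshold. It did not pass with any single array other than MEF_het replicate 1 left out, nor with quantile normalization (adjusted p = 0.0676).

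Xbp1, the transcription factor whose messenger RNA is spliced by Ire1, was higher on all Tdg-/- arrays. It was at 10.31, 10.69 and 10.72 (log2) in Tdg+/- and at 11.05, 11.14 and 11.09 in Tdg-/- MEFs. The difference of 0.52 ± 0.13 (SE, n = 3 per group), or 1.43-fold, had an adjusted p of 0.0825, and was 0.39 without MEF_het replicate 1 (adjusted p = 0.00188). Of its 4 probe sets 3 differed by 0.52 to 0.81, and 1 of these rose in the fit over named probe sets, 1.67-fold (adjusted p = 0.0323). That probe set was at 7.89, 8.23 and 8.25 against 8.81, 8.83 and 8.93. It no longer passed when MEF_het replicate 2 or a single Tdg-/- array was left out (highest adjusted p 0.190). The remaining probe set, at a mean of 6.10 under the olfactory receptor median, differed by -0.12. The place of each probe set relative to the spliced-out stretch was not known here, so the levels say nothing of splicing.

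Atf6, the sensor that is cut to a transcription factor, was at 7.70, 8.03 and 8.19 (log2) in Tdg+/- and at 8.17, 8.30 and 8.38 in Tdg-/- MEFs. The groups overlapped, and the difference was 0.30 (95% interval -0.04 to 0.64; adjusted p = 0.253). Atf4, the transcription factor of the amino acid response, is controlled mostly at translation. It was at 11.69, 11.78 and 11.73 against 11.63, 11.63 and 11.65, a difference of -0.09 (-0.28 to 0.09) with groups that did not overlap. The next Atf4 probe set, at a mean of 8.70, differed by 0.18 with groups that did not overlap the other way, and the third held MEF_het replicate 1 at 7.93 and all other arrays between 5.90 and 6.29.

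Ddit3, which encodes the death-linked factor Chop, was at 8.52, 9.12 and 8.99 (log2) in Tdg+/- and at 8.98, 8.97 and 8.96 in Tdg-/- MEFs. The Tdg-/- arrays lay within the Tdg+/- range, and the difference turned from 0.09 (95% interval -0.29 to 0.47) to -0.09 without MEF_het replicate 1. Trib3, a pseudokinase induced by Atf4 and Chop, was at 7.86, 7.48 and 7.42 against 7.82, 7.98 and 7.64. Here MEF_het replicate 1 was the highest of its group, and the difference was 0.23 (adjusted p = 0.339), or 0.37 without that array (adjusted p = 0.0126). Atf3, an early stress factor, was at 7.08, 7.27 and 7.30 against 6.97, 6.83 and 6.76. All Tdg-/- arrays were below all Tdg+/- arrays, with a difference of -0.36 ± 0.10 (SE, n = 3 per group; adjusted p = 0.113), or -0.43 without MEF_het replicate 1 (adjusted p = 0.00177). In the Tdg-/- group Atf3 lay under 7.03, the 90th percentile of the olfactory receptor probe sets.

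Ppp1r15a encodes Gadd34, the phosphatase subunit that restores translation, and Sesn2 a leucine sensor that restrains mTORC1. They differed by -0.02 (log2, 95% interval -0.28 to 0.24) and 0.05 (-0.17 to 0.28). Among the regulators, groups did not overlap for Xbp1 and Chac1 above and for Atf4 and Atf3 below, at their main probe sets. That is 22.2% each way, against 22.6% higher and 16.8% lower of all genes. Among genes above the median level the shares were 35.6% and 10.1%. For Atf4 the next probe set lay the other way, so no direction is given for it.

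**Figure D3:**
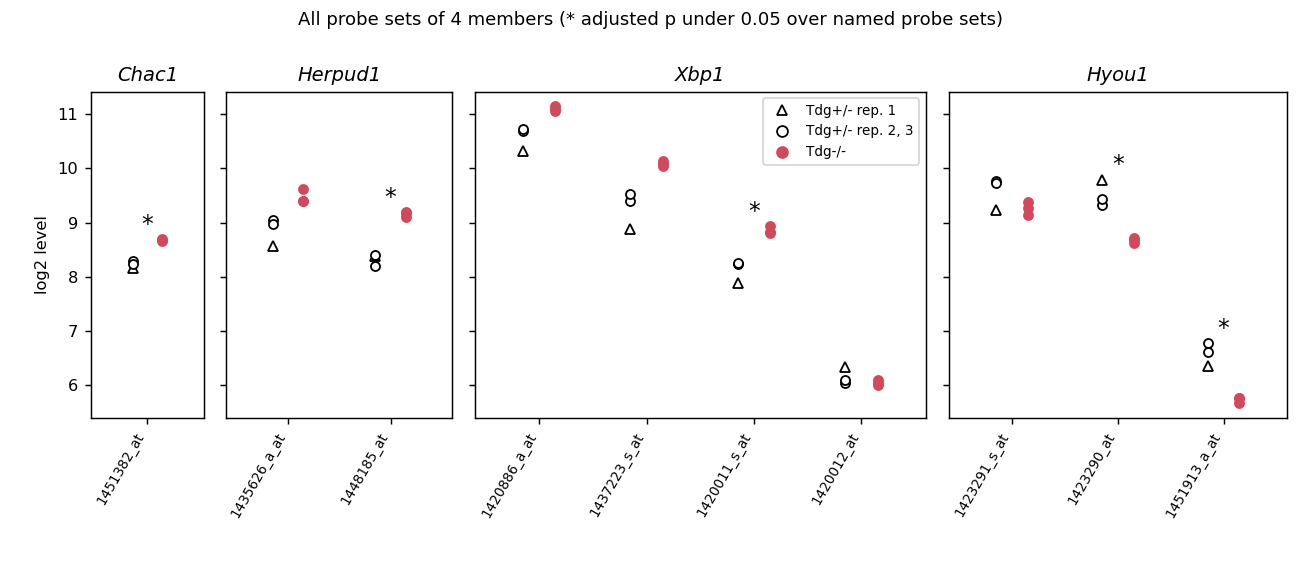
Log2 level of every probe set of Chac1, Herpud1, Xbp1 and Hyou1 on each array (y axis), with Tdg+/- in open symbols, replicate 1 as a triangle, and Tdg-/- in red. Asterisks mark an adjusted p under 0.05 over 20393 named probe sets, reached by 5 of those drawn. With or without an asterisk, Tdg-/- arrays are above Tdg+/- arrays for Chac1, both Herpud1 probe sets and 3 of 4 Xbp1 probe sets. They are below the Tdg+/- arrays for 2 of 3 Hyou1 probe sets.

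None of the 8 amino acid and one-carbon genes passed with all arrays, and their median difference was 0.05 (log2), or -0.01 after quantile normalization. Asns, asparagine synthetase and a standard Atf4 target, was at 10.42, 10.60 and 10.64 in Tdg+/- and at 10.91, 10.93 and 10.88 in Tdg-/- MEFs. The groups did not overlap, and the difference was 0.35 ± 0.09 (SE, n = 3 per group), or 1.28-fold, with an adjusted p of 0.0998 (0.0142 without MEF_het replicate 1). The other Asns probe set was at 9.16, 9.28 and 9.57 against 9.73, 10.02 and 9.93, a difference of 0.55.

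None of the serine and folate genes passed. Phgdh, the first enzyme of serine synthesis, was at 11.91, 11.90 and 12.02 (log2) in Tdg+/- and at 12.02, 11.98 and 12.08 in Tdg-/- MEFs, a difference of 0.08 (95% interval -0.12 to 0.28). Psat1, the next enzyme, differed by 0.01 (-0.20 to 0.23). Shmt2, which makes glycine and a one-carbon unit from serine in mitochondria, differed by -0.03 (-0.32 to 0.26), and Mthfd2, which oxidises that unit, by 0.31 (-0.08 to 0.70). These intervals are of the main probe sets. The 3 other probe sets of Phgdh alone differed by 0.14 to 0.33 and the other one of Psat1 by 0.19, and none passed.

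The transporters gave no called difference. Slc3a2 encodes the heavy chain shared by Slc7a5, the leucine transporter, and Slc7a11, the cystine transporter. Slc3a2 and Slc7a5 differed by 0.12 and -0.11 (log2), with adjusted p-values of 0.397 and 0.406. Slc7a11 was at 6.09, 6.33 and 6.03 in Tdg+/- and at 6.19, 6.10 and 5.90 in Tdg-/- MEFs. Both group means lie under the olfactory receptor median of 6.29, so expression of Slc7a11 was not established in either genotype.

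The promoter matches shown above were set beside these values. Of the 6 genes with the C/EBP-ATF element, Chac1, Trib3, Asns and Herpud1 passed as higher and Atf3 as lower without MEF_het replicate 1, and Slc7a11 did not pass. Of the 8 genes with the ER stress response element, Canx and Pdia6 passed as higher and the others, Hspa5, Calr, Hsp90b1, Dnajc3, Creld2 and Syvn1, did not. Of the 2 genes with the second form of that element, Herpud1, which holds the C/EBP-ATF element too, passed as higher and Dnajb11 did not. With all arrays Chac1 was the only gene past the threshold in these sets. The share called without MEF_het replicate 1 was 22% of all genes and 28.9% of genes above the median level. Whether any of these sets differs from other genes was not tested.

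**Figure D4:**
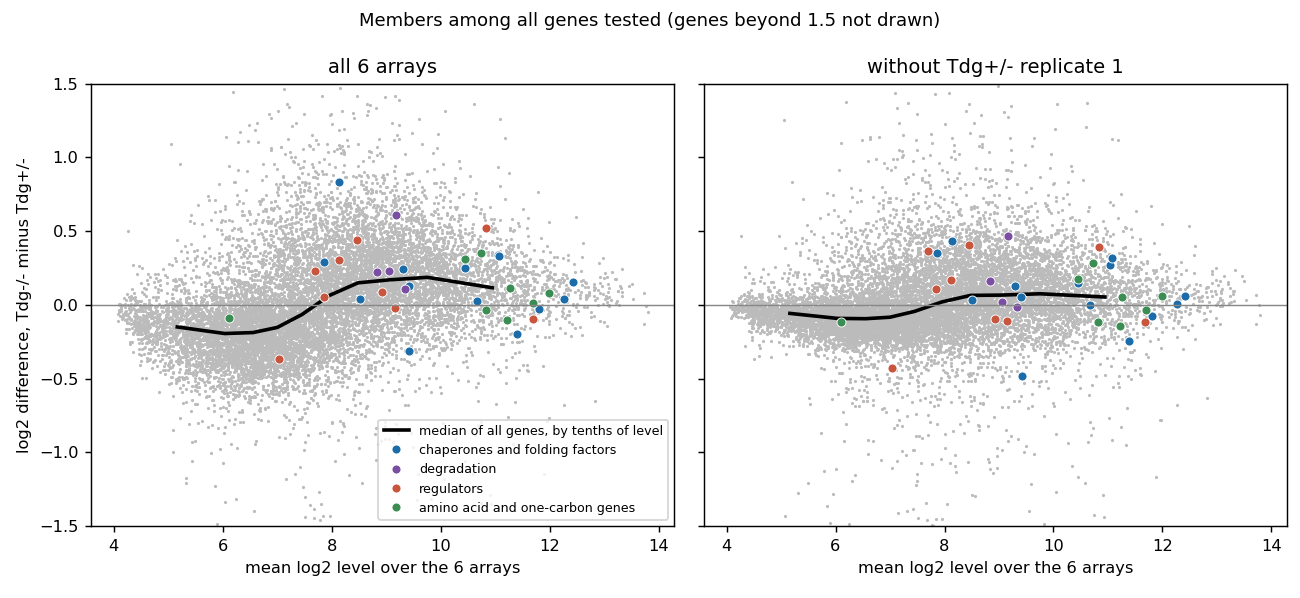
Log2 difference, Tdg-/- minus Tdg+/- (y axis), against mean log2 level (x axis) for all 12394 genes (grey), with the 35 genes coloured by role and the median of all genes in bins of level as a black line, with all 6 arrays and without Tdg+/- replicate 1. The median of genes above the median level is 0.14 with all arrays and 0.06 without that array, against 0.12 and 0.06 for the 35 genes.

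The wider pathway was described through 126 further genes, of which 7 rose, 1 fell and 118 did not pass, with 6.35% called against 3.83% of all genes and 5.42% of genes above the median level, where 112 of the 126 lie. Their median difference was 0.18 (log2). The 31 measured stress sensors and other regulators held 4 that rose and none that fell. Vldlr, a lipoprotein receptor gene induced by Atf4, rose 2.35-fold, from levels of 6.99, 6.71 and 6.45 (log2) to 7.92, 7.93 and 8.01 (adjusted p = 0.00726). Nupr1, a small stress-induced chromatin protein, rose 2.06-fold, from 8.22, 8.14 and 8.12 to 9.19, 9.23 and 9.19 (adjusted p = 0.00148). For both genes every Tdg-/- array was above every Tdg+/- array, and MEF_het replicate 1 was the highest of its group. The Tdg+/- values of Vldlr lie under 7.03, the 90th percentile of olfactory receptors, so its fold is set against a level near background.

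Atf5, a factor translated under the same control as Atf4, rose 1.70-fold, from 9.13, 9.29 and 9.41 (log2) to 9.97, 10.12 and 10.04 (adjusted p = 0.0135). Jdp2, a partner of Jun proteins and Atf3, rose 1.44-fold, from 8.20, 8.41 and 8.50 to 8.87, 8.86 and 8.95 (adjusted p = 0.0452). The sensors did not pass: Ern1 differed by -0.32 (95% interval -0.69 to 0.06), Eif2ak3 by 0.35 (0.00 to 0.70) and Eif2ak4 by 0.47 (0.10 to 0.83; adjusted p = 0.150), with both Eif2ak4 group means under 6.29. Without MEF_het replicate 1 Eif2ak4 passed as higher (0.30, adjusted p = 0.015). Eif2ak2, the kinase Pkr that senses double-stranded RNA, then passed as lower (-0.54, adjusted p = 0.000325), and with all arrays it differed by -0.45 (adjusted p = 0.0932).

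Of 20 further Atf4 amino acid genes, 2 rose and none fell. Psph, the last enzyme of serine synthesis, rose 1.66-fold, from 8.67, 9.07 and 9.14 (log2) to 9.71, 9.70 and 9.66 (adjusted p = 0.0387). Gpt2, a mitochondrial alanine aminotransferase, rose 1.70-fold, from 6.52, 6.54 and 6.75 to 7.25, 7.49 and 7.37 (adjusted p = 0.0165), and its Tdg+/- values lie under 7.03, the 90th percentile of olfactory receptors. Of 18 cytosolic tRNA synthetases, Cars, which charges cysteine, rose 1.34-fold, from 8.87, 8.98 and 8.94 to 9.31, 9.37 and 9.36 (adjusted p = 0.0438), and 17 did not pass. Of 38 further genes of ER folding and export, Spcs3, a signal peptidase subunit, fell 1.36-fold, from 11.75, 11.80 and 11.87 to 11.40, 11.36 and 11.34 (adjusted p = 0.0385), and none rose. None of 19 further degradation genes passed. At an unadjusted p under 0.05, 6 of them were higher, against 15.1% of all genes and 1469 of 6197 genes above the median level. After quantile normalization the list medians ran from -0.06 for the further amino acid genes to 0.13 for the tRNA synthetases, where Cars no longer passed (adjusted p = 0.154).

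Except for Nupr1, each of these calls was lost in some of the fits with a single array left out. The differences kept their direction in every such fit, at 1.10 to 1.37 (log2) for Vldlr and 0.39 to 0.44 for Cars. With a single Tdg-/- array left out, 0.766% to 0.936% of all genes were called, against 3.83% with all arrays. Nupr1 passed with each of the 6 arrays left out in turn (adjusted p from 1.28e-07 to 0.0267). Vldlr, Atf5, Jdp2, Psph and Gpt2 passed without MEF_het replicate 1 or 3, and lost the call when MEF_het replicate 2 or a single Tdg-/- array was left out, where their highest adjusted p-values were 0.0663, 0.105, 0.239, 0.201 and 0.116. Cars and Spcs3 passed only without MEF_het replicate 1. Without that array 27 of the 126 genes were higher and 8 lower, which is 27.8% called against 22% of all genes and 28.9% of genes above the median level.

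**Figure D5:**
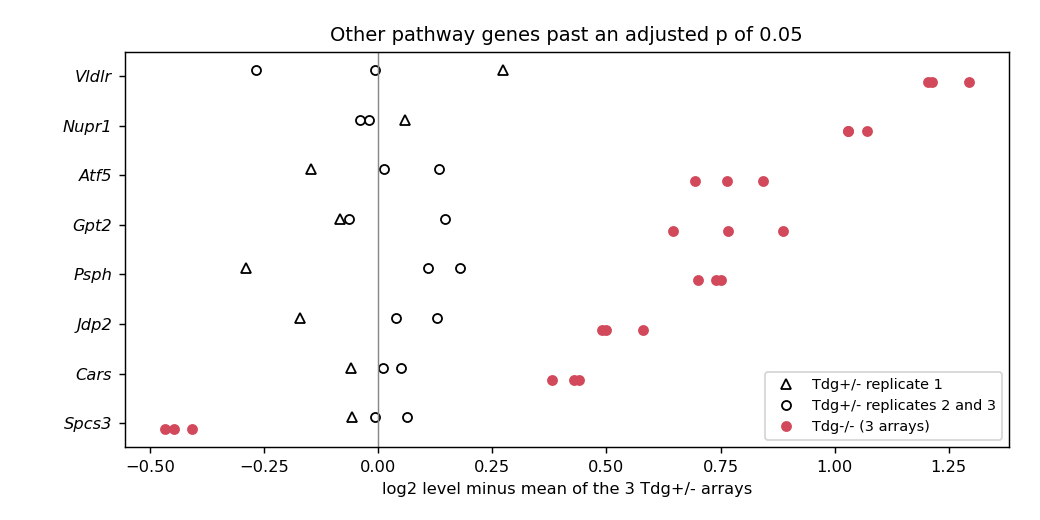
Log2 level minus the mean of the 3 Tdg+/- arrays (x axis) for the 8 further pathway genes past an adjusted p of 0.05 (y axis), with Tdg+/- arrays in open symbols, replicate 1 as a triangle, and Tdg-/- arrays in red. Red and open symbols do not overlap for any of the 8 genes, and Spcs3 is the one on the lower side.

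Chaperones outside the ER were read for comparison. Of 13 cytosolic heat shock genes, 2 rose and none fell, and all 13 had positive differences with a median of 0.27 (log2), or 10 of 13 and 0.15 after quantile normalization. Of genes above the median level, where 12 of the 13 lie, 5.42% were called and 70.9% had positive differences. Hspb8, a small heat shock protein gene, rose 2.67-fold, from 7.63, 7.73 and 7.88 to 9.06, 9.24 and 9.18 (adjusted p = 0.00125), and passed with each array left out in turn. Hspb1, another small heat shock protein gene, rose 1.65-fold, from 10.11, 10.24 and 10.46 to 11.03, 10.87 and 11.07 (adjusted p = 0.0268), a call lost when MEF_het replicate 2 or a single Tdg-/- array was left out (highest adjusted p 0.168). MEF_het replicate 1 was the lowest of the 6 arrays for all 13. None of 10 mitochondrial chaperone and protease genes passed. All 10 had positive differences, or 8 after quantile normalization. The groups did not overlap in the higher direction for 8 of them, which is 80%. That share is 22.6% of all genes and 35.6% of genes above the median level, where all 10 lie. At an unadjusted p under 0.05, 5 of the 10 were higher. Their median was 0.28, or 0.19 after quantile normalization, and without MEF_het replicate 1 it was 0.22, with 5 higher. The shares of all genes for the counts at an unadjusted p and without MEF_het replicate 1 are 15.1% and 14.1%. For genes above the median level they are 1469 of 6197 genes for the former and 20.6% for the latter. Whether these lists differ from the ER chaperones was not tested.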

How the data were processed

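The MEF values are log2 expression per Affymetrix probe set as deposited by the authors. The submitters' processing notes list the tools MAS5, RMA, affy and limma, without saying which made these values. Array medians ran from 7.38 to 7.42 and the SD from 1.7 to 1.9 (log2), lowest on MEF_het replicate 1. Of 22690 probe sets 20393 had 1 gene symbol in the platform annotation, 691 several and 1606 none, and 20364 were matched by gene ID to the RefSeq table of GRCm38.p6. The 12 ES and NP arrays, of another platform, were not used, nor their columns.

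The 2 groups of 3 arrays were compared with limma 3.58.1 in R 4.3.3 (lmFit and eBayes) with Benjamini-Hochberg adjustment over 12394 genes, each at its probe set of highest mean. Other probe sets were read from a fit over all 20393. Intervals are 95% from the same fit. The fit was tested on simulated data. Alternatives were probe set rules, 2 scalings, a level filter, a variance trend, a replicate block and leaving out each array. No 2 arrays held identical values. The number of arrays limits the precision.

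The genes, lists and tests were chosen with earlier results of these data known. Values per array follow a rule of named genes: those that passed, Hspa5, Xbp1, Atf6, Atf4, Ddit3, Trib3, Asns, Herpud1, Slc7a11, and the members of highest and lowest mean level in each role. Canx, Pdia6, Dnajb9 and Hyou1 were added after their values were seen, and so were the sensors and Eif2ak2 of the wider list and the single marker genes.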

Additional observations from a re-analysis of the deposited data

How the results depend on the processing

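Counts are given for the 35 genes higher, the 35 genes lower, the further pathway genes higher, those lower, and all genes, which were 1, 0, 7, 1 and 475. Leaving out 1 array at a time, they ran from 0 to 9, 0 to 2, 1 to 27, 0 to 8 and 95 to 2722, each time highest without MEF_het replicate 1. With the replicate block they were 0, 0, 4, 0 and 237. The mean of the probe sets of a gene gave 2 of the 35 genes higher (Herpud1, Chac1) and 1 lower (Hyou1). With dim probe sets left out 3 were higher (Herpud1, Xbp1, Chac1), of 33 tested among 6948 genes. Quantile normalization gave 3 further pathway genes lower, and Xbp1 in place of Chac1 among the 35 genes (adjusted p = 0.0476 and 0.0676). For these changes the cause was not tested. Median centring, a variance trend and the fit over all named probe sets moved none of these counts by over 1.5 times. The direction of the median of the 35 genes turned under quantile normalization alone, from 0.12 to -0.01 (log2).

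Whether equal replicate numbers pair the arrays was not tested. Deviations of same-numbered arrays correlated at 0.33, 0.01 and 0.37. Those of MEF_het replicate 1 with MEF_KO replicate 3 correlated at -0.3, and of MEF_het replicate 3 with MEF_KO replicate 1 at -0.39. MEF_het replicate 2 correlated best with MEF_KO replicate 3 (0.15). Signal near that of olfactory receptors limits what can be said of Slc7a11, Atf3, Vldlr, Gpt2, Eif2ak4 and the dimmer Hyou1 and Xbp1 probe sets.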
